A study of Homo sapiens with 6 samples.

Results

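CCL3, CCL4 and 8 related chemokines were examined in U2932 cells after silencing of the kinase ROCK2. The 10 genes, CCL3, CCL3L1, CCL3L3, CCL4, CCL4L1, CCL4L2, CCL17, CCL22, CXCL10 and CXCL16, were taken by symbol from the 20667 genes in the files. They were chosen by their difference between ROCK2 KD and Scr shRNA in these same libraries, so that difference is given here as a description and without a test. U2932 is an established cell line of ABC-DLBCL, the activated B-cell-like form of diffuse large B-cell lymphoma. All libraries came from cells infected with a lentiviral pLKO.1 vector that carries puromycin resistance and the fluorescent marker tGFP, sorted and selected with puromycin, and kept in Iscove's DMEM with serum. In 3 libraries the vector expressed an shRNA against ROCK2 (ROCK2 KD), and in 3 libraries a scrambled shRNA (Scr shRNA), with replicates 1, 2 and 3 in each group. The labels do not say whether the ROCK2 KD libraries share 1 shRNA or whether the replicates were separate infections or cultures, so p-values measure only the spread between these samples, which may be technical.

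Chemokines are small secreted proteins that draw leukocytes along a gradient through receptors on the cell surface. CCL3 and CCL4 are made by B cells after engagement of the B-cell receptor (BCR) and act on T cells and monocytes, CCL3 in part through the receptor CCR1. CCL17 and CCL22 both bind CCR4, a receptor of helper and regulatory T cells, CXCL10 is an interferon-induced ligand of CXCR3, and CXCL16 is a transmembrane ligand of CXCR6 that is released when ADAM10 cleaves it.

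CCL3 and CCL4 have recent copies beside them, and how far the copies can be told apart bears on every value below. In GRCh37, the build of the authors' alignment, CCL3 is at chr17:34415602-34417515 on the minus strand and CCL4 at chr17:34431220-34433014 on the plus strand. CCL3L3 (chr17:34522268-34524157) and CCL4L1 (chr17:34538310-34540280) form a second such pair, and CCL3L1 (chr17:34623842-34625731) and CCL4L2 (chr17:34639793-34641846) another. The coding sequences of CCL3 and of its copy CCL3L1 are shown because they show how few bases separate a copy from its parent gene. They were read from GENCODE 44 lifted to GRCh37, 5′ to 3′, and capitals mark the bases of a copy that differ from, or are inserted relative to, CCL3.
CCL3: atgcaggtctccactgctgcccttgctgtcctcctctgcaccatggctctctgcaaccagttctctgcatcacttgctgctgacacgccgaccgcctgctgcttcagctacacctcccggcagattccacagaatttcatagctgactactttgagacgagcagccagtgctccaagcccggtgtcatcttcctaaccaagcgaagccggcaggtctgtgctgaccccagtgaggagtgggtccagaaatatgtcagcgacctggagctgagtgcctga
CCL3L1: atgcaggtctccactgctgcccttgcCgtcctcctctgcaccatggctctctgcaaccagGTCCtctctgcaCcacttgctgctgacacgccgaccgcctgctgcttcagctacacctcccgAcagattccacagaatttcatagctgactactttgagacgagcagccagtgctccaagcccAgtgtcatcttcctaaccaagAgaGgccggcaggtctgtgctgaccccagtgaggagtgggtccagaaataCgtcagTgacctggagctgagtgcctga
The coding sequence of CCL3L3 was identical to that of CCL3L1 over 282 bases, and that of CCL4L1 to that of CCL4L2 over 279 bases. CCL3 and CCL3L1 matched at 270 of 282 aligned positions (95.7%), with 9 mismatches and 3 inserted bases. CCL4 and CCL4L2 matched at 271 of 279 positions (97.1%), with 8 mismatches. CCL3 and CCL4 themselves were 68.7% identical. Over the annotated exons, 90.2% of the 50-base windows of CCL3 and 79.2% of those of CCL4 occurred in no other of the 6 genes, against 12.6% for CCL3L1, 3.13% for CCL3L3, 47.7% for CCL4L1 and 18.7% for CCL4L2. A read of 50 bases could therefore be placed on CCL3 or CCL4 in most positions and on CCL3L1 or CCL3L3 in few, and the values of the copies are uncertain.

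The values were FPKM, fragment numbers normalised for transcript length and for the size of the library. FPKM are per length and can be compared between genes. Library sums of FPKM were 208289 and 217309 in replicate 1 and between 438262 and 480612 in replicates 2 and 3. The steps between low values put the relative depth of the libraries between 71.1% and 100% of the deepest, but the number of reads behind a value is unknown, so no counting interval is given. ROCK2 was 2.75, 5.35 and 1.26 FPKM in replicates 1, 2 and 3 of ROCK2 KD and 4.32, 7.21 and 5.78 in Scr shRNA, lower in ROCK2 KD within every replicate number, though the groups overlapped (limma adjusted p = 0.800). B cell markers CD79A, MS4A1, PAX5 and CD74 were above 1 FPKM in every library. All 8 markers of T and NK cells and all 6 of monocytes were below 1 FPKM in every library, with summed levels of at most 1.08 and 0.657, and CD2, GNLY and FCGR3A were listed at 0 throughout. In bulk RNA, a change in the number of cells that express a gene and a change in RNA per cell cannot be told apart.

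CCL3 and CCL4 were the most abundant of the 10 chemokines. CCL3 was 5.83, 123 and 132 FPKM in replicates 1, 2 and 3 of ROCK2 KD (mean 86.8 ± 70.2, SD, n = 3) and 6.11, 40.7 and 32.3 in Scr shRNA (mean 26.4 ± 18.0, SD, n = 3). It was higher in ROCK2 KD in replicates 2 and 3, by 3.02-fold and 4.07-fold, and level in replicate 1, where the ratio was 0.955. The replicate 1 library of ROCK2 KD lay below all Scr shRNA libraries, so the groups overlapped. CCL4 was 5.81, 106 and 120 FPKM in ROCK2 KD (mean 77.4 ± 62.4, SD, n = 3) and 5.16, 33.1 and 20.3 in Scr shRNA (mean 19.5 ± 14.0, SD, n = 3). The same libraries were high and low as for CCL3, with ratios of 1.13, 3.21 and 5.90 in replicates 1, 2 and 3. In Scr shRNA, the mean of CCL3 was above that of 88.5% of all genes and the mean of CCL4 above that of 85.0%.

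**Figure D1:**
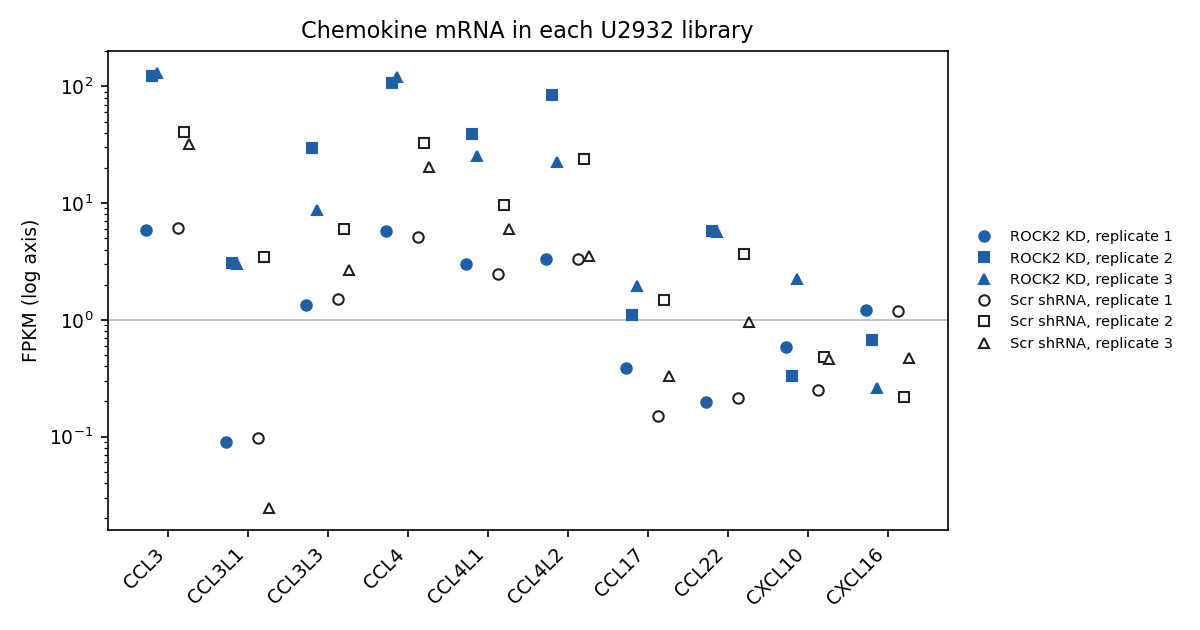
FPKM of the 10 chemokines (log axis) in each library, with ROCK2 KD as filled blue and Scr shRNA as open black symbols, circles for replicate 1, squares for replicate 2 and triangles for replicate 3. The grey line marks 1 FPKM. CCL3 and CCL4 reach 123 to 132 and 106 to 120 FPKM in replicates 2 and 3 of ROCK2 KD, while both circles of each gene lie between 5.16 and 6.11.

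CCL3 and CCL4 also kept a narrow ratio to each other. The FPKM of CCL3 was 1.004, 1.16 and 1.10 times that of CCL4 in replicates 1, 2 and 3 of ROCK2 KD and 1.18, 1.23 and 1.59 times in Scr shRNA, while CCL3 itself ranged from 5.83 to 132. On the log2 scale, centred on each gene's mean, the root mean square difference between CCL3 and CCL4 over the 6 libraries was 0.20, the smallest of any pair of tested members. The next smallest were 0.33 for CCL3L1 and CCL22 and 0.34 for CCL3L3 and CCL4L1. The largest was 1.22, for CCL3 and CCL17. These are descriptions over 6 libraries that share the replicate structure described below.

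The copies were lower than their parent genes in every library. CCL3L3 was 1.35, 29.6 and 8.71 FPKM in replicates 1, 2 and 3 of ROCK2 KD and 1.51, 5.98 and 2.66 in Scr shRNA. CCL3L1 was 0.0895, 3.08 and 3.00 FPKM in ROCK2 KD and 0.0964, 3.44 and 0.0242 in Scr shRNA. CCL3L1 was thus level in replicate 2 and separated the groups in replicate 3 alone, through 1 very low Scr shRNA value. The sum of CCL3L1 and CCL3L3, whose coding sequences are the same, was 1.44, 32.7 and 11.7 FPKM in ROCK2 KD and 1.61, 9.43 and 2.69 in Scr shRNA.

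CCL4L1 was 3.03, 39.5 and 25.1 FPKM in replicates 1, 2 and 3 of ROCK2 KD and 2.46, 9.61 and 5.97 in Scr shRNA. CCL4L2 was 3.32, 84.4 and 22.6 FPKM in ROCK2 KD and 3.30, 23.9 and 3.56 in Scr shRNA. For both copies of CCL4, replicates 2 and 3 of ROCK2 KD lay above the Scr shRNA library of the same number, and the replicate 1 libraries differed little. Summed, CCL4L1 and CCL4L2 were 6.35, 124 and 47.8 FPKM in ROCK2 KD and 5.76, 33.6 and 9.53 in Scr shRNA.

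The share of a family that fell to the parent gene differed more by replicate number than between ROCK2 KD and Scr shRNA. CCL3 made up 80.2%, 79.0% and 91.8% of the summed FPKM of CCL3, CCL3L1 and CCL3L3 in replicates 1, 2 and 3 of ROCK2 KD and 79.2%, 81.2% and 92.3% in Scr shRNA. CCL4 made up 47.8%, 46.2% and 71.5% of the sum with CCL4L1 and CCL4L2 in ROCK2 KD and 47.3%, 49.6% and 68.1% in Scr shRNA. Libraries of the same number lay close together, whereas replicate 3 gave the parent genes a larger share than replicates 1 and 2 in both groups. Summed over the family, CCL3 with its copies was 7.27, 156 and 143 FPKM in ROCK2 KD and 7.71, 50.1 and 35.0 in Scr shRNA, and CCL4 with its copies 12.2, 230.2 and 168 against 10.9, 66.6 and 29.9. The sums had the pattern of the single genes. Apart from transcript length, they do not depend on how shared reads were divided only if each shared read was counted once. Whether it was is not known, so the sums are uncertain too.

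**Figure D2:**
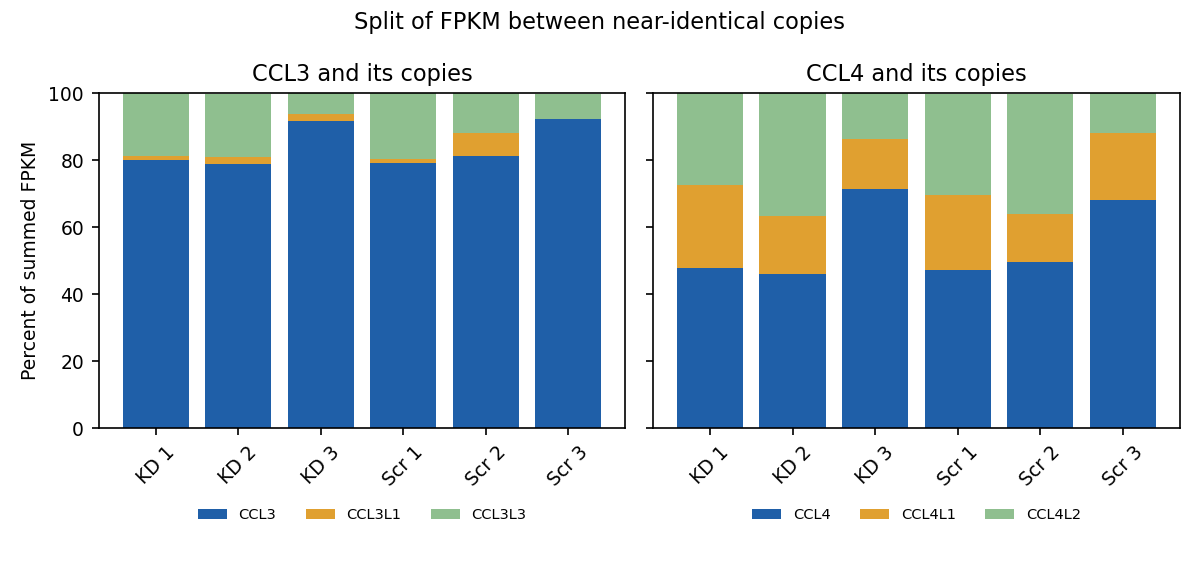
Share of the summed FPKM (percent, linear axis from 0) that was assigned to CCL3, CCL3L1 and CCL3L3 (left) and to CCL4, CCL4L1 and CCL4L2 (right) in each ROCK2 KD (KD) and Scr shRNA (Scr) library, numbered by replicate. The blue part, CCL4, is 46.2% to 49.6% in replicates 1 and 2 and 68.1% to 71.5% in replicate 3 of both groups.

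The ligands of CCR4 were low. CCL22 was 0.197, 5.75 and 5.70 FPKM in replicates 1, 2 and 3 of ROCK2 KD and 0.216, 3.65 and 0.967 in Scr shRNA. It was level in replicate 1, and the ratio of ROCK2 KD to Scr shRNA was 1.58 in replicate 2 and 5.89 in replicate 3. CCL17 was 0.385, 1.09 and 1.93 FPKM in ROCK2 KD and 0.149, 1.47 and 0.330 in Scr shRNA, higher in ROCK2 KD in replicates 1 and 3 and lower in replicate 2. CCL22 (chr16:57392695-57400101) and CCL17 (chr16:57438679-57449975) are neighbours on the plus strand of chromosome 16.

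CXCL10 and CXCL16 reached 1 FPKM in fewer than 3 libraries and were left out of the fit. CXCL10 (chr4:76942271-76944650, minus strand) was 0.585, 0.332 and 2.25 FPKM in replicates 1, 2 and 3 of ROCK2 KD and 0.252, 0.479 and 0.464 in Scr shRNA, so that only the replicate 3 library of ROCK2 KD stood above the others. CXCL16 (chr17:4636828-4643223, minus strand) was 1.21, 0.666 and 0.259 FPKM in ROCK2 KD and 1.19, 0.218 and 0.471 in Scr shRNA. CXCL16 was highest in both replicate 1 libraries, the reverse of CCL3 and CCL4.

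By mean FPKM in Scr shRNA, the order was CCL3 (26.4 ± 18.0), CCL4 (19.5 ± 14.0), CCL4L2 (10.3 ± 11.8), CCL4L1 (6.02 ± 3.58), CCL3L3 (3.39 ± 2.32), CCL22 (1.61 ± 1.80), CCL3L1 (1.19 ± 1.95), CCL17 (0.649 ± 0.714), CXCL16 (0.626 ± 0.505) and CXCL10 (0.399 ± 0.127), each with SD and n = 3. No neighbours in this order differed by more than the larger of their SDs.

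The differences between ROCK2 KD and Scr shRNA were estimated on log2(scaled FPKM + 1) with the replicate number as a block. Here a pseudocount of 1 is added, which makes the difference of a low gene look smaller. Of the 10 genes, 8 reached 1 FPKM in 3 or more libraries and entered the fit, which covered 10526 genes. The mean difference was 1.43 for CCL4 (SE 0.38), with 0.15, 1.66 and 2.48 in replicates 1, 2 and 3. It was 1.16 for CCL3 (SE 0.35), with -0.06, 1.58 and 1.97. The 3 values of CCL4L2 were 0.01, 1.78 and 2.33 (mean 1.37, SE 0.39) and those of CCL4L1 0.23, 1.92 and 1.87 (mean 1.34, SE 0.31). Replicates 2 and 3 thus carried the difference for each of the 4 genes. CCL3L3 differed by 1.13 (SE 0.36), from -0.10, 2.11 and 1.36, and CCL3L1 by 0.58 (SE 0.36), from -0.01, -0.12 and 1.86. CCL22 differed by 0.74 (SE 0.29), from -0.03, 0.53 and 1.70, and CCL17 by 0.39 (SE 0.23), from 0.32, -0.22 and 1.08. With copies summed, the mean difference was 1.17 for CCL3 (SD of the 3 differences 1.10) and 1.45 for CCL4 (SD 1.18).

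**Figure D3:**
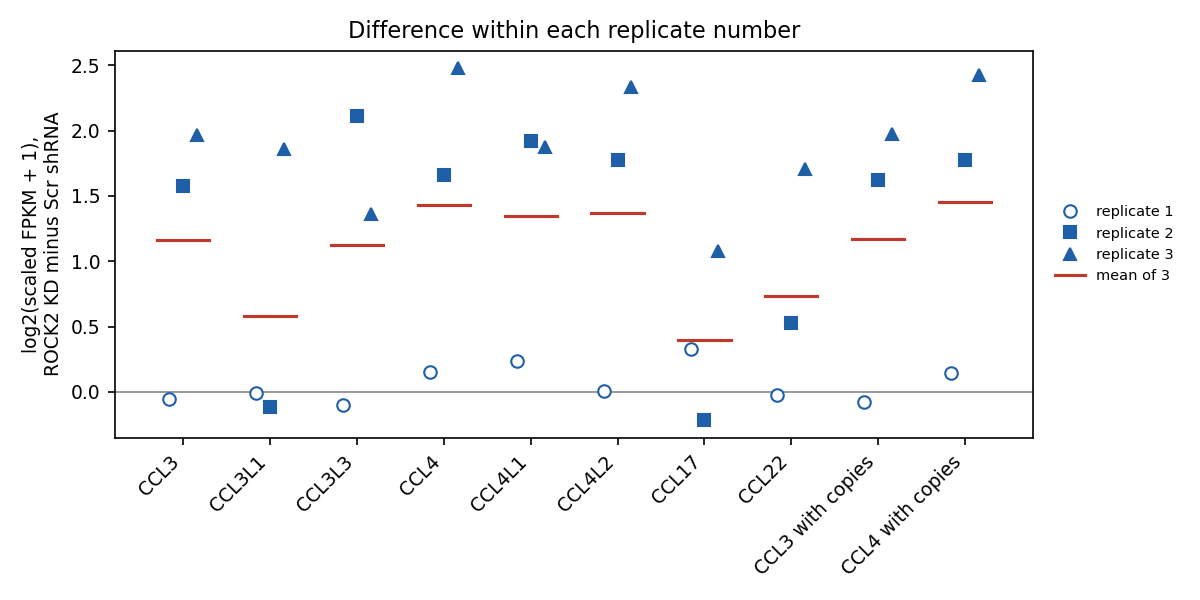
Difference between the ROCK2 KD and the Scr shRNA library of the same replicate number, on log2(scaled FPKM + 1), for the 8 chemokines in the fit and for CCL3 and CCL4 with their copies summed. Open circles are replicate 1, squares replicate 2, triangles replicate 3, and red lines the mean of the 3. The circles lie between -0.10 and 0.32, and the triangles between 1.08 and 2.48.

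The median difference of the 8 genes was 1.14, beside -0.00 for all genes tested, and the choice of the genes fixed its direction. ROCK2 KD was higher in all 3 replicate numbers for 3 of the 8 (CCL4, CCL4L1 and CCL4L2), as for 13.1% of all genes tested, and lower in all 3 for 0 of the 8, as for 12% of genes. Groups without overlap were seen for 0 of the 8, beside 0.922% of genes with ROCK2 KD higher and 0.76% with ROCK2 KD lower. Over all genes tested, 0 (0%) passed an adjusted p of 0.05 in limma's test with Benjamini-Hochberg adjustment. An unadjusted p under 0.05 was found for 573 genes (5.44%), with 331 higher (3.14%) and 242 lower (2.3%). With ComBat in place of the block, 296 genes passed the adjusted threshold. That fit does not count the replicate effects removed beforehand, which can make its p-values too small. No p-value is given for the chemokines, since this difference chose them. A difference of at least 1 on the log2 scale in both replicate 2 and replicate 3, a threshold set after the values were seen, was held by 8 genes (0.076%), CCL3, CCL3L3, CCL4, CCL4L1, CCL4L2, CLEC17A, EGR1 and SEMA7A.

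Single replicate numbers moved these differences. Without replicate 1, that of CCL3 became 1.77 (SE 0.14), CCL3L3 1.74 (SE 0.20), CCL3L1 0.87 (SE 0.42) and CCL22 1.12 (SE 0.27). Without replicate 2, CCL3L3 became 0.63 (SE 0.30), CCL3L1 0.92 (SE 0.37) and CCL17 0.70 (SE 0.21). Without replicate 3, CCL3 became 0.76 (SE 0.35), CCL4 0.90 (SE 0.33), CCL4L2 0.89 (SE 0.38), CCL22 0.25 (SE 0.18), CCL17 0.05 (SE 0.18) and CCL3L1 -0.06 (SE 0.15). CCL3L1 was the one member whose sign turned in any alternative.

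The replicate numbers themselves separated the chemokines, a comparison that did not enter the choice of the genes. Averaged over both groups on log2(scaled FPKM + 1), CCL3 was 3.10, 5.96 and 5.92 in replicates 1, 2 and 3, and CCL4 was 2.99, 5.71 and 5.54. CCL22 was 0.34, 2.31 and 1.77, CCL4L1 2.16, 4.17 and 3.63, CCL4L2 2.38, 5.32 and 3.26, and CCL3L3 1.49, 3.68 and 2.47. Replicate 1 had the lowest mean of each of the 8 genes, as it did for 59.9% of all genes tested. limma's F test across replicate numbers, with the groups as a term, gave an adjusted p of 0.00223 for CCL3, 0.00419 for CCL4, 0.00485 for CCL4L2, 0.00777 for CCL22, 0.00939 for CCL4L1, 0.0141 for CCL3L3, 0.0310 for CCL3L1 and 0.158 for CCL17. These are 7 of 8 genes, beside 57.5% of all genes tested. With no filter on low values, 2 of the 10 chemokines passed, beside 6157 of 18785 genes. The distance between the highest and the lowest replicate mean was 2.86 for CCL3 and 2.72 for CCL4, beside a median of 0.59 over all genes, and it was at least 1 for 7 of the 8 and for 20.8% of all genes. CCL3L1, CCL17 and CCL22 passed the filter only through libraries of replicates 2 and 3, which favoured such a difference. Among genes at 1 FPKM or above in every library, the other 5 all passed the F test in a fit of these genes, beside 59.6%, and all 5 had a distance of at least 1, beside 19.5%. Without replicate 1, only CCL3L3 (adjusted p = 0.0185, limma) and CCL4L2 (adjusted p = 0.000873) differed between replicates 2 and 3, beside 712 of 10526 genes.

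The receptors of these chemokines were near or at 0. CCR1, CCR3 and the scavenger receptor ACKR1 were listed at 0 in every library, and CCR4, CXCR6 and ACKR2 were at most 0.163, 0.0449 and 0.0606 FPKM. CXCR3, the receptor of CXCL10, had its highest value, 0.831 FPKM, in ROCK2 KD replicate 3, the library with the highest CXCL10, and was at most 0.244 in the others. Of 29 other chemokine ligands in the files, 15 were listed at 0 in every library and 28 stayed below 1 FPKM throughout. The exception was CCL28, a ligand of mucosal tissues, at 0.716 to 1.28 FPKM (log2 difference -0.01, SE 0.13). CCL5, a ligand of CCR1, was at most 0.592. CCL3 and CCL4 thus had the highest FPKM of the listed chemokine ligands.

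Of 15 other chemokine receptors, 4 were tested, and CXCR5, which guides B cells to follicles, was higher in ROCK2 KD by 0.28 on the log2 scale (SE 0.10, higher in 3 of 3 replicate numbers). This did not pass adjustment (limma adjusted p = 0.879). Of 6 genes that bind or cleave chemokines, 4 were tested. SRGN encodes serglycin, a granule proteoglycan that binds secreted chemokines, and was 14.8, 54.2 and 74.4 FPKM in replicates 1, 2 and 3 of ROCK2 KD and 11.8, 37.7 and 39.1 in Scr shRNA. Its log2 difference was 0.57 (SE 0.13, limma adjusted p = 0.791), with the highest values in the libraries that were high in CCL3. ADAM10, the sheddase of CXCL16, differed by 0.22 (SE 0.12).

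Genes of pathways that act on CCL3 and CCL4 in B cells were described by list, and 0 genes of any list passed an adjusted p of 0.05 in limma. Among the early genes of BCR signalling, 4 of 7 tested were higher at an unadjusted p under 0.05 and 0 lower, with a median log2 difference of 0.74. The 4 were DUSP2 (0.75, SE 0.13) and DUSP5 (0.74, SE 0.20), phosphatases of MAP kinases, and EGR1 (0.90, SE 0.22) and EGR2 (0.92, SE 0.23), transcription factors of the immediate early response. EGR1 was 0.753, 6.82 and 7.40 FPKM in replicates 1, 2 and 3 of ROCK2 KD and 0.566, 2.03 and 2.62 in Scr shRNA, so that its replicate 1 libraries were low in both groups, like those of CCL3.

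In the list from the BCR to NF-κB, 3 of 19 tested were higher and 0 lower at that threshold, with a median of 0.04. These were the adaptor BLNK (0.37, SE 0.10), the kinase LYN (0.34, SE 0.10) and the BCR subunit CD79A (0.22, SE 0.09). Of the NF-κB subunits and targets, 5 of 18 were higher and 0 lower, with a median of 0.17. Among them were the survival gene BCL2A1 (0.69, SE 0.15), the activation marker CD83 (0.62, SE 0.15) and the inhibitor NFKBIE (0.51, SE 0.15). The others were the subunit REL (0.33, SE 0.12) and the cytokine LTA (0.60, SE 0.25). LTA differed by 0.36, 1.45 and 0.01 in replicates 1, 2 and 3. Of the interferon-induced genes, 7 of 11 were higher and 0 lower, with a median of 0.33. The antigen peptide transporter TAP1, the ubiquitin-like protein ISG15 and the transcription factor IRF1 had means of 0.53 (SE 0.17), 0.46 (SE 0.16) and 0.45 (SE 0.16). TAP1, ISG15 and IRF1 differed by 1.03, 0.90 and 0.91 in replicate 3, where CXCL10 was also highest in ROCK2 KD. In replicates 1 and 2 they differed by at most 0.35, and a link with CXCL10 was not tested. TAP1 itself was lowest in replicate 3 of both groups, at 6.96 FPKM in ROCK2 KD and 2.79 in Scr shRNA. It was between 10.2 and 29.6 FPKM in replicates 1 and 2. The background for these counts is the 3.14% of all genes that were higher at an unadjusted p under 0.05. The lists were chosen with earlier results of these data known, so the counts are a description and no test.

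Within 500 kb of the CCL3 and CCL4 cluster, 9 other genes were tested, with log2 differences from -0.28 (MRM1) to 0.13 and a median of -0.07, and 0 had an unadjusted p under 0.05. Near CCL17 and CCL22, 10 genes had a median of 0.03, and ARL2BP (0.29, SE 0.14) and NLRC5 (0.27, SE 0.14) differed most. Near CXCL10, 6 genes lay between -0.05 and 0.18, and near CXCL16, 16 genes lay between -0.23 and 0.12, with 0 genes under that threshold at any of the 4 loci.

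Among tested genes other than the 10 chemokines, those whose log2 values over the 6 libraries, centred on the gene's mean, lay closest to CCL3 were CLEC17A (root mean square difference 0.35), LOC101927931 (0.52), DUSP2 (0.55), TNFRSF1B (0.70) and BLNK (0.71). For CCL4, again outside the 10 chemokines, they were CLEC17A (0.50), LOC101927931 (0.59), DUSP2 (0.62), TNFRSF1B (0.65) and EGR1 (0.73). CLEC17A, a C-type lectin of B cells, was 0.922, 24.5 and 30.8 FPKM in replicates 1, 2 and 3 of ROCK2 KD and 0.529, 7.44 and 12.1 in Scr shRNA, with the same libraries high and low as for CCL3. For CCL22, with the same genes left out, they were TNFRSF1B (0.23), SAMSN1 (0.32), PLCB1 (0.37), HLA-DRB5 (0.38) and FCRL5 (0.39). TNFRSF1B, a receptor of TNF, was 0.955, 7.22 and 9.08 FPKM in ROCK2 KD and 0.507, 4.26 and 2.12 in Scr shRNA.

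**Figure D4:**
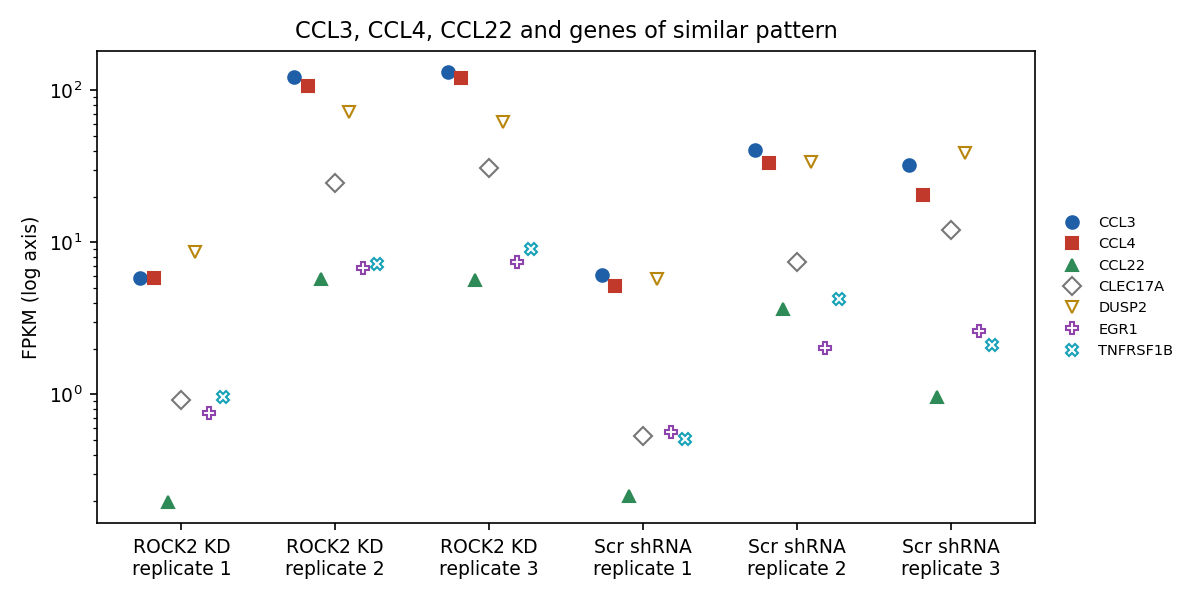
FPKM (log axis) of CCL3, CCL4 and CCL22 (filled symbols) and of CLEC17A, DUSP2, EGR1 and TNFRSF1B (open symbols) in each library, with symbols set side by side within a library. All 7 genes are lowest in the replicate 1 library of each group, CCL3 at 5.83 and 6.11 FPKM and EGR1 at 0.753 and 0.566.

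The promoters of CCL3, CCL3L3, CCL22 and CXCL10 are shown because the promoter windows used here covered these 4 of the 10 genes. The sequences are the 250 bases before the start in RefSeq, build GRCh38.p14, 5′ to 3′ on the strand of the gene, and capitals mark every match to a motif. In that build the windows are chr17:36090144-36090393 (CCL3, minus strand), chr17:36196759-36197008 (CCL3L3, minus strand), chr16:57358533-57358782 (CCL22, plus strand) and chr4:76023498-76023747 (CXCL10, minus strand).
CCL3: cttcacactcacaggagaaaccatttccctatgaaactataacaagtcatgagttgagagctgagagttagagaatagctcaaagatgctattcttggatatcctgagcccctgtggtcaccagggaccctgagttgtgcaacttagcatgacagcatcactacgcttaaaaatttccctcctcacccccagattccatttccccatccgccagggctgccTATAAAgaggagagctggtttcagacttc
CCL3L3: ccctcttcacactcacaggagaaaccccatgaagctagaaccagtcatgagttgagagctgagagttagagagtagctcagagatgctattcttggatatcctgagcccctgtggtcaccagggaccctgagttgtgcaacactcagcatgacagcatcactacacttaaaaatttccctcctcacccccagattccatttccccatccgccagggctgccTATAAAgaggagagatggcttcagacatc
CCL22: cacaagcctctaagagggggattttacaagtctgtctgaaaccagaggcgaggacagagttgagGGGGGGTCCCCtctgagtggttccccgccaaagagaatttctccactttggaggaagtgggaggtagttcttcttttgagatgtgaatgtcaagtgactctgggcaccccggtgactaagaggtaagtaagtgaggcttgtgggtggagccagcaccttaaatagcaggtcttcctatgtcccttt
CXCL10: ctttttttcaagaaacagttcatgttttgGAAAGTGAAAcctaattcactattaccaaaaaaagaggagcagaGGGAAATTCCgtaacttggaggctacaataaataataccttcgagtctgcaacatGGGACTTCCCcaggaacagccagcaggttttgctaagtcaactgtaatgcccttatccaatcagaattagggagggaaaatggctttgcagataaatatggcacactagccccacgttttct
The motifs searched on both strands were the kappa-B consensus, the AP-1 heptamer with a free central base, an ETS-IRF composite, an ISRE-like element and the TATA box with the letters TATAAA. CCL3 and CCL3L3, 91.0% identical over 256 aligned positions of this window, each held TATA from -29 to -24 and no other match. CXCL10 held the kappa-B consensus from -177 to -168 and from -122 to -113, the latter on both strands, and an ISRE-like element from -221 to -212. CCL22 held overlapping kappa-B matches between -186 and -176, on both strands. Among 35116 promoter windows, 9.96% held the kappa-B consensus, 3.02% the ISRE-like element, 10.7% TATA, 6.57% AP-1 and 2.41% the ETS-IRF composite. A match is a description of the letters and shows no binding.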

How the data were processed

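RNA-seq was done on 3 ROCK2 KD and 3 Scr shRNA libraries of U2932 cells, grouped by the titles of the samples. The deposited values are FPKM per gene symbol, which the authors computed with Cufflinks after alignment of paired 50-base reads from Nextera libraries to hg19 with STAR. The annotation, and how reads shared by copies were assigned, are not given in the sources used here. The authors' own test used read counts after a batch correction by replicate, and these counts were not used here.

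A trimmed mean of log ratios (trims of 0.3 and 0.05) scaled the FPKM, genes that reached 1 FPKM in 3 or more libraries were kept, and log2(scaled FPKM + 1) was fitted in limma 3.58.1 (R 4.3.3) with group, replicate number as a block and a mean-variance trend, with two-sided tests and Benjamini-Hochberg adjustment at 0.05. The pseudocount of 1 understates changes of low genes. The block follows the numbers shared by both groups in the titles and the study's own batch correction. The deviations of same-numbered libraries from the mean of their group correlated over genes at 0.855, 0.785 and 0.742, and pairs of different numbers had correlations of at most 0.0557. Differences between replicate numbers were tested with limma's F test in the same fit. Python 3.11.15 with pandas 2.3.3, numpy 2.4.6, Biopython 1.88 and matplotlib 3.10.9 was used for tables, alignments and plots, and the fits were tested on simulated data. FPKM steps of low genes gave relative depth only: in the 5 libraries other than the deepest, 59.0% to 62.5% of low genes lay at ratios of 1 to 3 reads (tolerance 0.02 on the log2 scale), so reads could not be recovered.

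The chemokines and all gene lists were chosen with earlier results of these data known. From each list, genes were named that had an unadjusted p under 0.05 and 1 direction in all 3 replicate numbers, at most 4 by lowest p. For each locus, at most 2 genes with the largest difference were named, and for CCL3, CCL4 and CCL22 the 5 genes, other than the 10 chemokines, with the closest pattern. LTA, CCL28, ADAM10, CCL5 and SEMA7A were named after their values were seen. Alternatives covered the block, ComBat without the group in its model, the pseudocount, scaling, filter, trend, each replicate number and sums of copies. Some genes and sequences that these rules would name are not reported here.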

Additional observations from a re-analysis of the deposited data

How the results depend on the processing

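The number of genes that differed between ROCK2 KD and Scr shRNA, 0 in the fit with the block, was also 0 without the replicate block, with a pseudocount of 0.1 or 0.5, unscaled, with median-of-ratios scaling, under both other filters and without the trend. With ComBat on the replicate number and no block it was 296 (164 higher, 132 lower), in a fit whose p-values can be too small for the reason given above. Leaving out a replicate number gave 0 to 4: without replicate 1, where these genes were level, the 3 were CCL3, CCL4L1 and CCL4L2, which had been chosen by this difference and so are no test of it, and without replicate 3 they were SNORA34, SNORA4, SNORA57 and SNORA5A, small nucleolar RNA genes. The replicate block left the difference of CCL3 at 1.16 and that of CCL4 at 1.43. The SEs without the block were 1.08 and 1.02, and 26 genes in place of 573 then had an unadjusted p under 0.05.

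Between replicate numbers, 6048 genes and 7 chemokines differed. Leaving out a replicate number gave 712 to 5538 genes and 2 to 8 chemokines, the lowest of both without replicate 1, and with no filter 2 chemokines passed. Of 97 values of the chemokines' differences under alternatives, 96 kept their sign. With a pseudocount of 0.1, CCL17 was 0.95 and CCL3L1 1.44, in place of 0.39 and 0.58, and with ComBat they were 0.26 and 0.36. With ComBat, CCL3 was 0.85 and CCL4 1.05. The causes were not tested. The unknown number of reads limits the lowest values most, those of CXCL10 and CXCL16, below 1 FPKM in most libraries, and those of CCL17, CCL22 and CCL3L1 in replicate 1 and in Scr shRNA replicate 3, where CCL3L1 was 0.0242 FPKM.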
